A study of Homo sapiens with 2 samples.

Results

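The 9 genes described here encode the sensors of foreign or misplaced RNA and DNA in the cytosol, with the adaptor and the RNA editor that act next to them: IFIH1, DDX58, DHX58, MAVS, EIF2AK2, TMEM173, MB21D1, ZBP1 and ADAR. They were chosen by name among the 43317 names on the array, with earlier results of these data known. Current nomenclature calls DDX58 RIGI, TMEM173 STING1 and MB21D1 CGAS. The array files use the older names, which are kept here. The 9 genes had 15 probes in all: 5 genes had 1 probe, and DDX58, EIF2AK2 and ZBP1 had 2 probes each and MAVS 4.

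RNA was compared between R-HL60, a line made resistant to the nucleoside analogue cytarabine by culturing HL60 with rising concentrations of the drug, and HL60, its untreated parental line. HL60 is an established human line of acute myeloid leukaemia, of promyelocyte type, and both lines were grown in the same medium. Each line gave 1 Agilent 1-colour array, read as 1 linear fluorescence intensity per probe. R-HL60 is thus a single resistant line, and the sources used here do not state whether it was under cytarabine when RNA was taken, so selection for resistance and presence of the drug cannot be told apart.

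Cytosolic sensing works in modules. RIG-I (DDX58) and MDA5 (IFIH1) are helicases that bind foreign or misplaced double-stranded RNA and signal through MAVS on the mitochondrial surface, while cGAS (MB21D1) binds DNA and makes a cyclic dinucleotide that activates STING (TMEM173) on the endoplasmic reticulum. Both routes reach the kinase TBK1 and the factor IRF3 and switch on type I interferon, which in turn raises many of the sensors themselves in most cell types. PKR (EIF2AK2) stops translation when it meets double-stranded RNA, ZBP1 reads Z-form nucleic acid and triggers cell death, and ADAR edits adenosines in a cell's own RNA so that the sensors do not answer to it.

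A single array per line gives no replicate spread, so no test, standard error or p-value can be given, and line and array cannot be told apart. Signals were scaled by each array's 75th percentile, which was 294 in R-HL60 and 292 in HL60, and a signal above the array's own median (32.8 in R-HL60, 30.7 in HL60) counted as above the floor. The only error at hand is the SD of log2 differences between different probes for 1 gene, taken at matching brightness. It is called the probe SD below, was 0.19 over 4723 genes, and does not cover the spread between cultures or arrays. Among all genes that exceeded the floor on 1 array or both, 185 (0.786%) were higher by 2-fold or more in R-HL60, and 70 (0.297%) were lower by as much. With the arrays aligned on their medians instead, the split was 129 higher and 91 lower, and the median of all genes shifted to -0.12 on the log2 scale, against -0.03. Both lines carried the markers of a myeloid line: all 10 measured promyelocyte and myeloid markers were above the floor on both arrays, with MPO, myeloperoxidase, at a log2 difference of -0.12, although ELANE, neutrophil elastase, was 4.59-fold lower in R-HL60 at 153 against 699.7 in HL60.

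The RNA sensors of the RIG-I family differed most. IFIH1, the sensor of long double-stranded RNA, had a signal of 2092 in R-HL60, against 603 in HL60, a 3.45-fold difference. DHX58 (LGP2), a helicase that binds RNA but lacks the signalling domain and tunes its 2 relatives, stood at 1617 in R-HL60 and 1067 in HL60, 1.51-fold apart. For DDX58, the sensor of short RNA with a 5' triphosphate, the brighter probe read 513 in R-HL60 and 452 in HL60, and the dimmer probe 189.9 in R-HL60 and 139.8 in HL60. All 4 probes of the family were thus brighter in R-HL60, but only that of IFIH1 passed 2-fold.

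**Figure D1:**
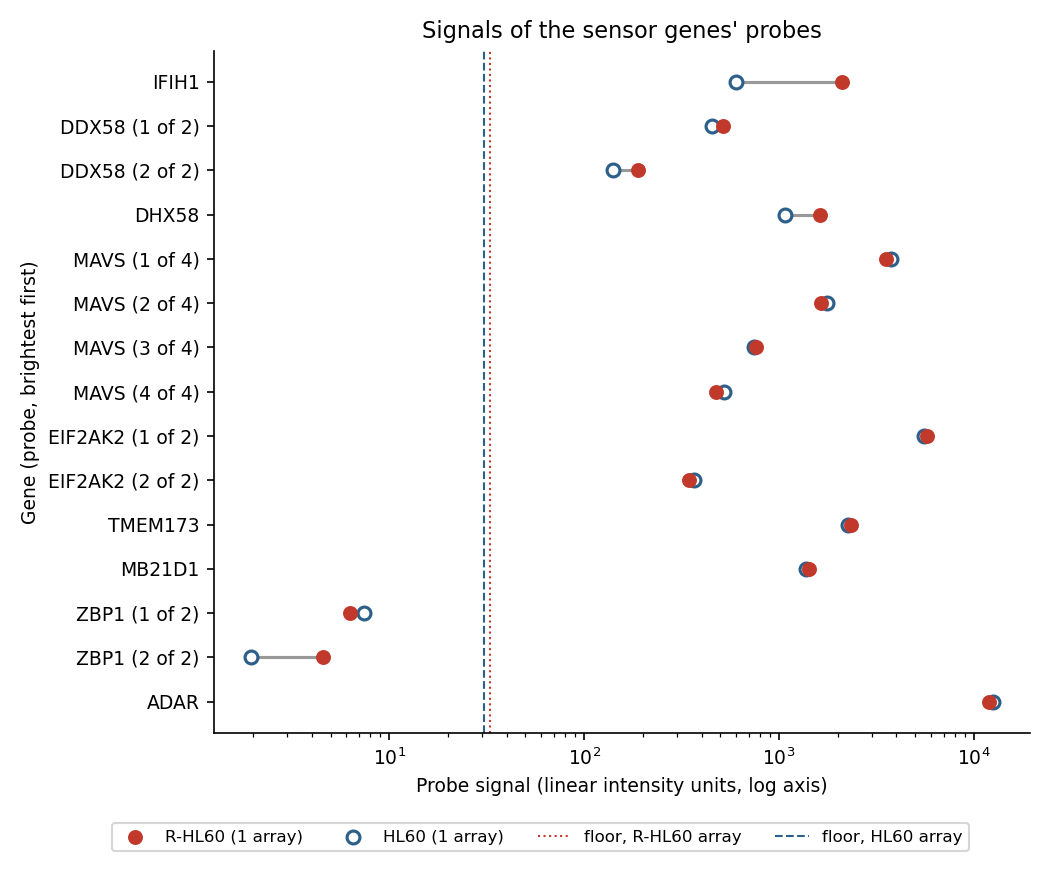
Signal of each of the 15 probes on the R-HL60 array (filled) and the HL60 array (open), on a log axis in linear intensity units; the vertical lines are the floors of both arrays, 32.8 in R-HL60 and 30.7 in HL60. The IFIH1 points lie far apart, at 2092 in R-HL60 and 603 in HL60, those of DHX58 and DDX58 less so, most others nearly coincide, and the 2 ZBP1 probes lie left of both floors.

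The promoter stretches of IFIH1 and DDX58 are shown because these genes belong to 1 family and differed unequally, and that of EIF2AK2 because it holds a motif of the same kind as IFIH1 without a comparable difference in signal. Each runs 5' to 3' on the gene's own strand from 170 bases before to 10 bases after the RefSeq start (GRCh38.p14), and capitals mark the motif matches.
IFIH1: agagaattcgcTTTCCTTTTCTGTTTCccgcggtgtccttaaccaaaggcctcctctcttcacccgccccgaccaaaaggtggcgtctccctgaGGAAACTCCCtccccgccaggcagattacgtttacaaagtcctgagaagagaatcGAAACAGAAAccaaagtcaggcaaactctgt
DDX58: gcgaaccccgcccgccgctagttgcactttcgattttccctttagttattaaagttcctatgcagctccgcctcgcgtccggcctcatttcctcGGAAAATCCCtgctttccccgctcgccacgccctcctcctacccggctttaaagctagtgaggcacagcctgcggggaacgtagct
EIF2AK2: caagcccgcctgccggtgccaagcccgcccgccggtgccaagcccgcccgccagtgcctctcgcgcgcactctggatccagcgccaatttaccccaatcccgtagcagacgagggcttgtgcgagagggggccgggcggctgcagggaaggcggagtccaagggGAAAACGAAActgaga
They lie at chr2:162318675-162318854, chr9:32526187-32526366 and chr2:37156971-37157150, all on the minus strand. These places describe RefSeq and not the probes, whose build no source used here gives.

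3 kinds of motif were searched on both strands of RefSeq windows reaching from 250 bases before to 50 bases after each start: the core of the interferon-stimulated response element (GAAA, any 2 bases, then GAAA again), the gamma-activated site (TTC, any 3 bases, then GAA) and a kappaB-like site (GGG, any 2 bases, then TTTCC). The table of windows held 5 of the 9 genes, with 3 starts for ADAR, and not DHX58, TMEM173, MB21D1 or ZBP1. IFIH1 had 3 matches to the response element core. A pair overlapped on the opposite strand, at -159 to -150 and -153 to -144 from the start, and the third lay on its own strand at -21 to -12. EIF2AK2 had 1 such match on its own strand, from -6 to 4. IFIH1 and DDX58 each had a kappaB-like match on the opposite strand at -76 to -67. The IFIH1 window is shared with its head-to-head neighbour GCA, with 79 bases between the nearest starts. The overlapping pair lies past the GCA start, on the strand of GCA, and the kappaB-like match lies between both starts. MAVS and ADAR windows matched none of the 3, and no member's window matched the gamma-activated site. Of 35116 windows in the table, 3.57% held the response element core, 7.66% the gamma-activated site and 1.91% the kappaB-like site. A match in these letters shows no binding, and whether any of these places was in use in either line was not measured.

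On the log2 scale, R-HL60 minus HL60, the IFIH1 difference was 1.79 with a probe SD of 0.14. It was the 25th largest increase among the 21838 genes above the floor on both arrays, where 0.114% of genes had a difference at least as large. In the authors' normalized table, IFIH1 read 2134 in R-HL60 and 602 in HL60, a log2 difference of 1.83. That table rescales the same 2 arrays, and quantile scaling of the raw signals also gave 1.83. IFIH1 has a single probe, so no second sequence of the gene was measured. Its signal was 63.7 times the floor in R-HL60 and 19.7 times the floor in HL60, so the difference does not rest on dim readings. DHX58 had a log2 difference of 0.59 with a probe SD of 0.14, and 3.08% of genes differed upward by at least this much. DDX58 differed by 0.17 with a probe SD of 0.15 on its brighter probe and by 0.43 with a probe SD of 0.21 on its dimmer one. The 2 DDX58 probes thus gave unequal values on the same side of 0, the brighter one about the size of its probe SD.

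Every other sensor gene that could be measured was within 2-fold of HL60. MAVS, the adaptor on which both helicases converge, had signals in R-HL60 of 3529, 1635, 763 and 476 on its 4 probes, brightest first. The same probes read 3753, 1756, 742 and 521 in HL60. The log2 differences were -0.10, -0.11, 0.03 and -0.14, with probe SDs of 0.11, 0.14, 0.15 and 0.15. None of the 4 reached its probe SD in size, and their mean was -0.08. MAVS was the member measured by most probes, and 3 of the 4 lay below 0 under every scaling tried. With the arrays aligned on their medians, the third turned to -0.06. The other 3 then read -0.19, -0.20 and -0.23, past their probe SDs, where the median of all genes was -0.12.

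Both genes of the DNA route gave nearly the same signal in the 2 lines. TMEM173, which encodes STING, read 2345 in R-HL60 and 2267 in HL60. MB21D1, which encodes cGAS, read 1423 in R-HL60 and 1371 in HL60. Each difference was 0.04 on the log2 scale with a probe SD of 0.14, and both signs turned when the arrays were aligned on their medians, to -0.05 each. The sensor and the adaptor of this route were therefore not distinguishable between the lines at the precision of 1 array each.

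Of the genes that act on RNA without MAVS, EIF2AK2 and ADAR were bright in both lines. EIF2AK2, the kinase PKR, read 5758 in R-HL60 and 5569.9 in HL60 on its brighter probe, and 344 in R-HL60 and 365 in HL60 on its dimmer one. The log2 differences, 0.04 with a probe SD of 0.11 and -0.09 with a probe SD of 0.15, lay on opposite sides of 0, and the first turned to -0.05 with the arrays aligned on their medians. ADAR, the editing enzyme, read 11984 in R-HL60 and 12464 in HL60, a difference of -0.07 with a probe SD of 0.11 that moved to 0.01 under another scaling. The gene gives a constitutive short and an interferon-inducible long protein form, and its single probe carries no label that tells their transcripts apart.

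ZBP1 was not measured in either line. Its probes read 6.27 and 4.59 in R-HL60, and 7.39 and 1.96 in HL60. All 4 readings lay below the floor, so no difference is given, and a low level in both lines and a weak probe cannot be told apart.

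**Figure D2:**
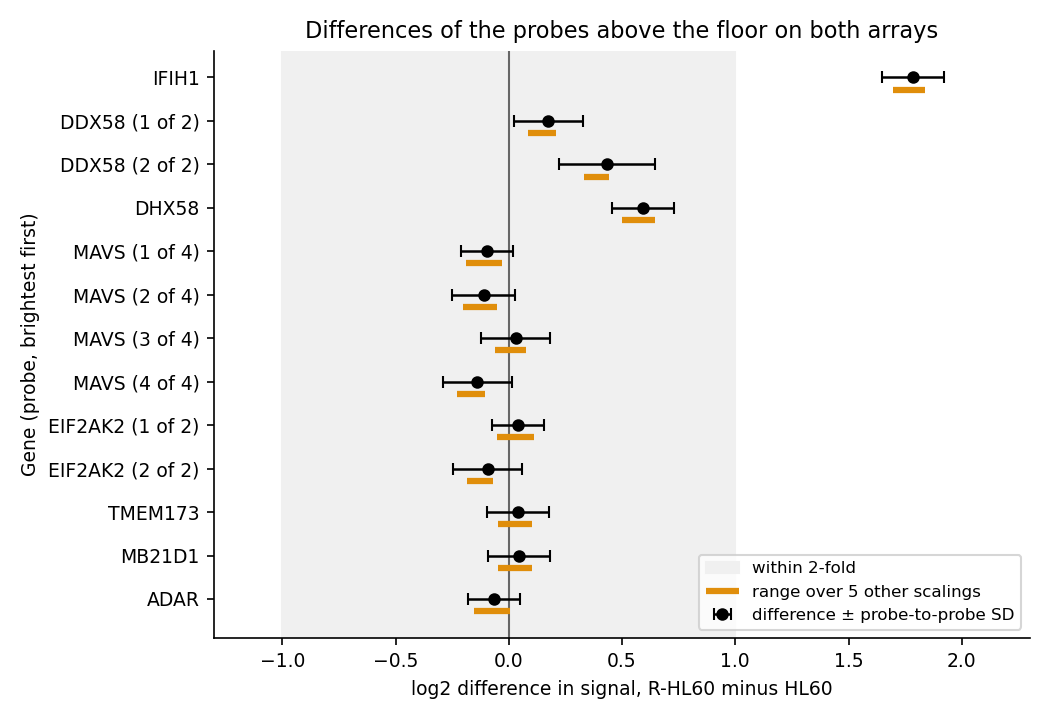
Log2 difference in signal, R-HL60 minus HL60, for the 13 probes above the floor on both arrays; points carry the probe-to-probe SD at their brightness, the orange bars span 5 other scalings, and the grey band is within 2-fold. The IFIH1 probe lies at 1.79, outside the band, DHX58 at 0.59 is next, and the MAVS, EIF2AK2, TMEM173, MB21D1 and ADAR probes sit around 0.

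Counted together, 1 of the 8 measured sensor genes (12.5%) was at least 2-fold higher in R-HL60, beside 0.786% of all genes, and 0 were at least 2-fold lower, beside 0.297%. By probe, 1 of 13 (7.69%) was higher, beside 0.705% of all probes, and 0 were lower, beside 0.285%. The higher share rests on IFIH1 alone, and a single gene of 8 says nothing of the group. The members' median log2 difference was 0.04, against -0.03 over all genes. 6 of the 8 lay within 0.25 of 0, as did 75.4% of all genes. By the brightest probe, the sensors other than IFIH1 and DHX58 therefore fell where most genes of the array fell. The plot of differences against brightness shows this. For DDX58 this depends on the probe, since its dimmer one, at 0.43, lay outside 0.25.

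**Figure D3:**
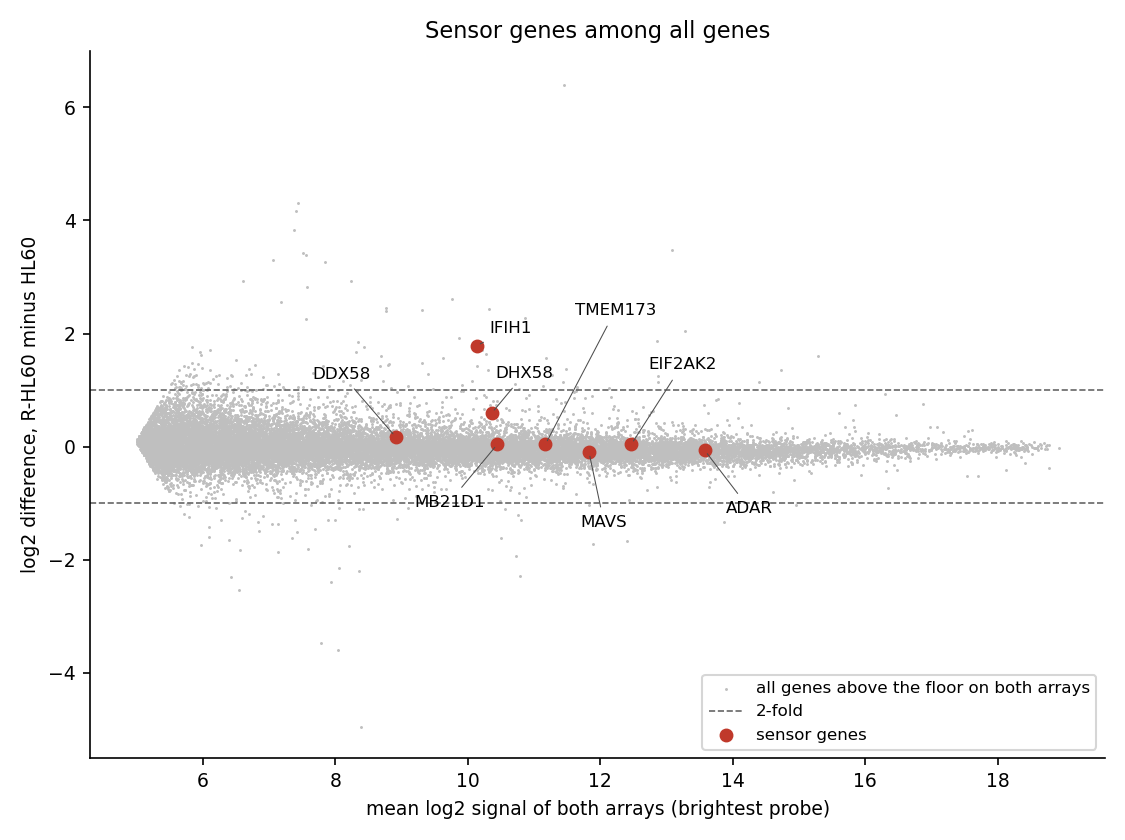
Log2 difference, R-HL60 minus HL60, against mean log2 signal of both arrays for all 21838 genes above the floor on both arrays (grey) and the 8 measured sensor genes (red, brightest probe of each); dashed lines mark 2-fold. IFIH1 stands outside the lines at 1.79, DHX58 at 0.59 lies at the upper edge of the grey cloud, and the other 6 lie within it.

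The pathways around the sensors were described with 12 lists, which hold 204 genes when each is counted once. On 1 array or both, 173 exceeded the floor. Of these, 6 (3.47%) were at least 2-fold higher in R-HL60 and 0 lower, beside 0.786% and 0.297% of all genes. The median log2 difference was -0.03, the same as over all genes. The lists were chosen with earlier results of these data known, so their share past 2-fold is a description and no test.

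Among 20 regulators of the RIG-I-like receptors, 1 was at least 2-fold higher and 0 lower, with a median of -0.03. The 1 was CYLD, a deubiquitinase that removes chains from RIG-I and its partners, whose single probe read 25699 in R-HL60 and 305 in HL60, 83.9-fold apart. Of 17 kinases, adaptors and transcription factors downstream of MAVS and STING, 0 passed 2-fold either way, with a median of -0.00. TRAF3, a ubiquitin ligase that MAVS recruits, differed most, at 813 in R-HL60 and 548 in HL60, 0.56 on the log2 scale. TBK1, the kinase both routes share, differed by 0.01, IRF3, its substrate, by -0.10, and IRF7, the interferon-inducible factor of the same family, by 0.26. TBK1 and IRF3 thus read close to HL60, TRAF3 and IRF7 less so, and the single CYLD probe stood far from HL60.

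Other sensors were mixed. Of 19 further RNA sensors, 16 were above the floor on both arrays, 1 was at least 2-fold higher and 0 lower, with a median of -0.10. The higher one was OAS3, which makes the oligoadenylates that switch on RNase L, at 402 in R-HL60 and 157 in HL60, or 2.55-fold. OAS3 has 2 probes, and only 1 was above the floor on both arrays. OAS2, at -0.05 on the brightest of its 3 probes, reached 1.07 on another. Of 17 further DNA sensors, 1 was at least 2-fold higher and 0 lower, with a median of -0.08. This was AIM2, which builds an inflammasome on cytosolic DNA, at 838 in R-HL60 and 109 in HL60, or 7.65-fold. IFI16, its relative that works with STING, was below the threshold at 3070 in R-HL60 and 2033 in HL60, a log2 difference of 0.59.

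The partners of single members gave few differences. Of 15 measured genes of STING trafficking and regulation, 0 passed 2-fold either way, 3 lay above 0, beside 42.8% of all genes, and the median was -0.16. INSIG1, a membrane protein that anchors a ligase acting on STING, differed most, at 13088 in R-HL60 and 18571 in HL60, or -0.51. Of 14 genes that clear nucleic acids, 0 passed 2-fold either way, with a median of -0.03. TREX1, the exonuclease that degrades cytosolic DNA ahead of cGAS, differed by 0.26 and SAMHD1, which depletes nucleotides and also inactivates the active form of cytarabine, by -0.16. Of 19 PKR partners and genes of eIF2 phosphorylation, 1 was at least 2-fold higher and 0 lower, with a median of -0.09. It was DDIT3, the stress factor CHOP, at 1618 in R-HL60 and 716 in HL60, or 2.25-fold. EIF2S1, the subunit that PKR phosphorylates, differed by -0.26.

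ZBP1 passes its signal to RIPK3 and MLKL, the kinase and the pore-former of necroptosis. RIPK3, like ZBP1, was below the floor on both arrays, at 10.9 in R-HL60 and 11.3 in HL60. MLKL read 2859 in R-HL60 and 3262 in HL60, a difference of -0.20. Of the 6 measured genes on that list, 0 passed 2-fold either way, the median was -0.10, and CASP6, a caspase that aids the complex, differed most, by -0.33. Among 10 adenosine deaminases of the ADAR family and related enzymes, 0 passed 2-fold either way, and the 9 above the floor on both arrays had a median of -0.03. ADARB1, the second active editing enzyme, differed by -0.02. Of these 9, the dim ADAD1, a testis relative, differed most, by 0.54 at 52.2 in R-HL60 and 35.6 in HL60. ADARB2 was above the floor in R-HL60 only, at 51.4 against 29.1 in HL60. Its difference was at least 0.74, a bound that depends on the floor.

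Interferon itself was scarcely measurable. Of 16 type I and III interferon genes on the array, 13 were below the floor on both arrays, among them IFNB1, the first target of the sensors, at 10.9 in R-HL60 and 17.8 in HL60. IFNL2, a type III interferon, differed most of the 2 measured on both, by 0.22. Of the 11 measured interferon receptors and ISGF3 genes, 0 passed 2-fold, 9 lay above 0, beside 42.8% of all genes, and the median was 0.12. Of 36 interferon-stimulated genes that exceeded the floor on 1 array or both, 3 were at least 2-fold higher and 0 lower. Over all genes, 0.786% were higher and 0.297% lower. The 3 were CXCL10, OAS3 and TRIM22. CXCL10, a chemokine, read 1991 in R-HL60 and 26.2, below the floor, in HL60, so that it was at least 64.5-fold higher. That bound, 6.01 on the log2 scale, depends on the floor and fell to 5.00 with the floor at percentile 60 and to 4.66 with an offset of 50 added to each signal. TRIM22, an antiviral ligase, read 209.7 in R-HL60 and 96.3 in HL60, or 2.17-fold. ISG15, the interferon-induced ubiquitin-like protein, differed by -0.01, at 6271 in R-HL60 and 6257 in HL60. The list's median was 0.26, with 24 of its 35 genes above 0, beside 42.8% of all genes. Interferon raises many of the sensors too, and the members were as mixed as this list. IFIH1 and DHX58 were higher, by 1.79 and 0.59. DDX58 differed by 0.17 on its brighter and 0.43 on its dimmer probe. EIF2AK2 differed by 0.04 and -0.09, and ADAR by -0.07, while ZBP1 was below the floor. In the list likewise some genes were higher and others, ISG15 among them, were not.

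**Figure D4:**
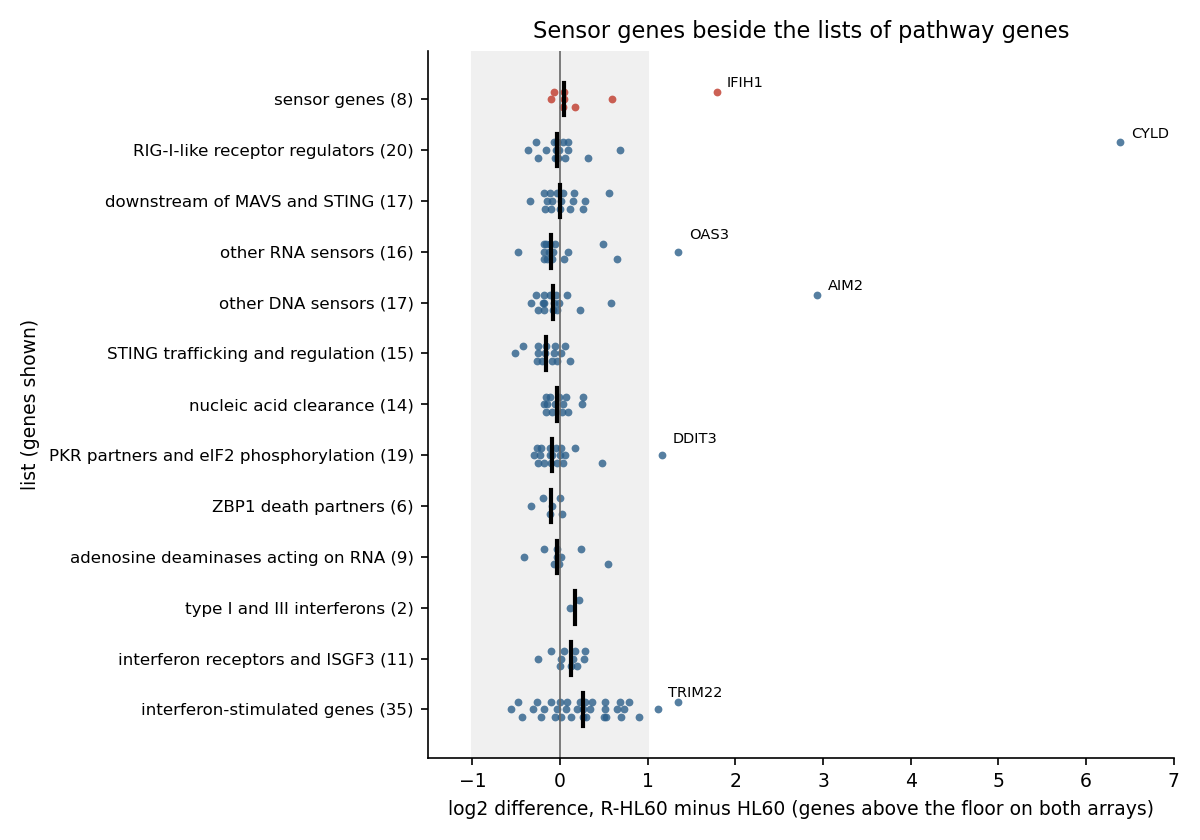
Log2 difference, R-HL60 minus HL60, for the sensor genes (red) and the genes of 12 pathway lists (blue); each dot is a gene above the floor on both arrays, vertical bars are list medians, and the grey band is within 2-fold. Most dots lie in the band, CYLD (6.39), AIM2 (2.93), OAS3 (1.35), TRIM22 (1.11) and DDIT3 (1.17) lie beyond it, and CXCL10, below the floor in HL60, is not drawn.

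Other cell types were looked for by their markers. Of 9 T and NK cell markers, 6 were above the floor on both arrays, with a summed signal of 20388 in R-HL60 and 16940 in HL60. CD3D, a chain of the T cell receptor complex, read 6201 in R-HL60 and 3923 in HL60, a log2 difference of 0.65. Those of CD4, CD8A, NKG7, CD3E and LCK were 0.09, 0.06, 0.28, -0.15 and -0.74, and CD3G, ZAP70 and GNLY were below the floor on both arrays. Of 6 markers of plasmacytoid dendritic cells, with a summed signal of 395 in R-HL60 and 444 in HL60, 5 were above the floor. CLEC4C was below it, and IL3RA at 33.6 and GZMB at 36.7 in R-HL60 were close to it. Above the floor on both arrays were 4 of 6 B cell, 1 of 7 fibroblast, 3 of 5 epithelial, 4 of 5 endothelial and 5 of 6 erythroid markers. By the brightest probe of each gene, no marker in these lists passed 2-fold in either direction. LCK was measured by 2 probes, and its other one was just past 2-fold lower in R-HL60. The part of any of these cell types in the IFIH1 difference was not tested.

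The place of IFIH1 in the genome was examined after its value was seen. GCA, which encodes the granulocyte calcium-binding protein grancalcin, is its next protein-coding neighbour in RefSeq, on the opposite strand and head to head, with 79 bases between the nearest starts. GCA read 5137 in R-HL60 and 2758 in HL60, 1.85-fold apart, a log2 difference of 0.89 with a probe SD of 0.11. Only 0.939% of genes differed upward by at least this much. Within 5 genes on each side, 7 of the 10 neighbours were below the floor on both arrays. Besides GCA, those above it were GCG, at -0.20 with a probe SD of 0.21, and the dim COBLL1, 5 genes away, at 0.54 with a probe SD of 0.28. Over the 36 nearest protein-coding neighbours of all 9 members, 22 were measured on both arrays and ranged from -0.37 to 0.89 with a median of -0.09, and GCA was the highest of them.

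**Figure D5:**
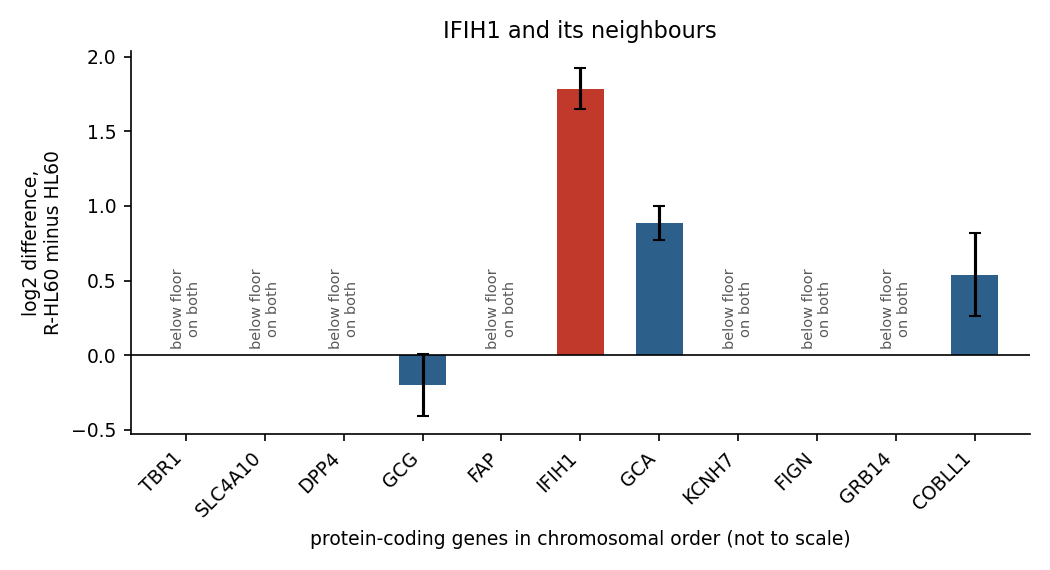
Log2 difference, R-HL60 minus HL60, of IFIH1 (red) and the 5 protein-coding genes on each side in chromosomal order, not to scale; whiskers are the probe-to-probe SD. IFIH1 at 1.79 and GCA at 0.89 stand side by side, COBLL1 is at 0.54 and GCG at -0.20, and 7 neighbours have no bar since they were below the floor on both arrays.

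Among 14539 named genes, the 4 whose log2 signals on both arrays lay nearest to those of IFIH1 were MMP9, ZC3H12A, S100A9 and LRG1. MMP9, a secreted protease of neutrophils, was nearest, at 2159 in R-HL60 and 657 in HL60, a distance of 0.13. ZC3H12A, an RNase that degrades inflammatory transcripts, lay at 0.23, S100A9, a calcium-binding protein of granulocytes, at 0.26, and LRG1, a secreted glycoprotein of the same cells, at 0.39. Their log2 differences were 1.71, 1.64, 1.42 and 1.35, and being near that of IFIH1 follows from how these genes were picked. The measure takes in brightness, which depends on the probe, and spans only 2 arrays.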

How the data were processed

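Total RNA of each line was labelled with Cy3 and hybridised to 1 Agilent array, per the labels' protocols. Per array, the authors deposited a linear intensity and a gene name for each of 58201 probes. Agilent Feature Extraction 10.7.3.1 was used, per the submitters' processing notes. A second deposited table holds normalized intensities of both arrays and served as an alternative. The scanner column, the background treatment, the normalization of that table and the genome build are not given in the sources used here.

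Intensities were taken to log2 and each array's 75th percentile was subtracted. The floor was the array's median, since no detection flags were used, and the probe with the highest mean stood for its gene. A gene above the floor on 1 array has a bound only, taken against the floor or its own value there, whichever is higher. No test was possible with 1 array per line, whose number limits the precision. The difference between probes of 1 gene was pooled in 5 bins of brightness. Genes were counted at 2-fold. Calculations were tested on simulated data and used Python 3.11.15, pandas 2.3.3 and statsmodels 0.14.6.

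Of 43317 names, 21081 were current RefSeq symbols (GRCh38.p14), 1567 an older symbol of 1 gene, 57 of several, and 20612 were not matched. The members, the gene lists and the motifs were chosen with earlier results of these data known. Named were all 9 members, per list up to 4 genes past 2-fold or else the gene with the largest difference, a set of 15 targets of the members whatever their value (1 of which is not reported here), and the 4 genes nearest to a member past 2-fold. MPO, ELANE and single markers, the IFIH1 neighbours and the interferon-stimulated genes among the other observations were picked with their values in view. Alternatives were quantile, median and loess scaling (fraction 0.3), the authors' table, an offset of 50 added to each signal, floors at percentiles 40 and 60 and none, the mean of all probes, and thresholds of 1.5-fold and 3-fold.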

Additional observations from a re-analysis of the deposited data

How the results depend on the processing

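All 65 values of the 13 measured member probes under 5 other scalings moved by less than the probe SD. The authors' table nearly repeated quantile scaling, so these are not 5 separate checks. IFIH1 ranged from 1.70 to 1.84 and DHX58 from 0.50 to 0.65, while the signs of the small TMEM173, MB21D1, ADAR, brighter EIF2AK2 and 1 MAVS differences turned. The members at least 2-fold higher numbered 1 under every setting but the 1.5-fold threshold, which gave 2. The pathway genes higher, 6, became 14 at 1.5-fold and 3 at 3-fold, and those lower, 0, became 1 with no floor. TRIM22 fell to 0.82 with the offset. Of 264 counts for the 12 lists, 252 stayed within 1.5 times, but most of these were counts of 0 that stayed 0. The 3 higher interferon-stimulated genes ranged from 1 to 9, and the 1 higher further RNA sensor from 0 to 2.

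Over all genes, 185 higher and 70 lower became 66 and 39 with the offset, 346 and 109 with the floor at percentile 40, 102 and 50 at 60, 2536 and 1300 with no floor, 831 and 324 at 1.5-fold, and 45 and 29 at 3-fold. Counts near the floor thus depend on where it is set, and dim genes such as ZBP1 have no difference here. No paired analysis was possible because each line has 1 array. Nothing here measures the spread between cultures.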

Other observations

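Among the interferon-stimulated genes within 2-fold, log2 differences lay on both sides of 0. MX1 and MX2, antiviral GTPases, had differences of 0.73, at 252 in R-HL60 and 151 in HL60, and 0.78, at 185 in R-HL60 and 107 in HL60. MX2 was measured by 2 probes, and the other one gave 0.19. CXCL11, a chemokine related to CXCL10, differed by 0.91. The IFIT family, which binds foreign RNA, was itself mixed: IFIT1, IFIT2 and IFIT3 differed by -0.48, -0.56 and -0.44, and the dimmer IFIT5 by 0.65, at 54.3 in R-HL60 and 34.4 in HL60. IFITM1, IFITM2 and IFITM3, membrane proteins that hinder virus entry, differed by -0.31, -0.22 and -0.26.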
